A study of Homo sapiens with 4 samples.

Results

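The tripartite motif (TRIM) family was followed in SW1353 cells through all probes whose platform gene symbol begins with TRIM and a number. The array held 120 such probes for 69 genes among 18661 named genes. Of these 69 genes, 35 had a detection p under 0.01 for at least 1 probe on at least 1 array, against 10128 analysed genes in all. The number of TRIM genes detected was 31 in Con, 28 in IL1, 31 in IL1_TSA and 30 in Con_TSA. The remaining 34 genes were not detected on any array and are given below by their lowest detection p only.

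SW1353 is a human chondrosarcoma cell line used as a chondrocyte model, and every sample was total RNA from it. Con received the DMSO vehicle alone, IL1 received vehicle and then IL-1α for 6 hours, IL1_TSA was given 250 ng/ml of trichostatin A (TSA) for 1 hour and then the same IL-1α, and Con_TSA received TSA without IL-1α. TSA inhibits the zinc-dependent histone deacetylases broadly, and the comparisons ask how TRIM transcripts stood with and without it, in resting and in stimulated cells. Each condition was 1 array, so no difference has a replicate check and no p-value between conditions is given.

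Most TRIM proteins carry a RING finger that transfers ubiquitin from an E2 enzyme to a target, followed by B-boxes and a coiled coil, and the class of the protein is set by what follows at its C-terminus. Many members act in innate immunity, either by binding viral components or by attaching ubiquitin chains to sensors and adaptors of the antiviral and NF-κB pathways, and a subset of the genes is known to be raised by interferon. Other members act on chromatin, on microtubules or on muscle and neuronal proteins.

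Levels are log2 values of background-corrected, quantile-normalised intensity, averaged over the detected probes of a gene. A gene is called higher or lower where its difference reached 1.5-fold, which is 0.58 on the log2 scale, with a probe detected on the brighter array. Where the gene was not detected on the dimmer array, the fold is also given as a lower bound against the lowest detected level of that array, which lay between 6.39 and 6.73. Levels of different probes are not comparable with each other. The share of all probes detected was between 26.8% and 28.8% per array and was highest in IL1_TSA, as was the median intensity of 113 against 86.9 to 95.3 on the other arrays. Of 10 chondrocyte markers on the array, SOX9, COL11A1 and HAPLN1 were detected, whereas SOX5, SOX6, ACAN, COL2A1, COL9A1, COMP and MATN3 were not. Of 10 markers of blood, endothelial and epithelial cells on the array, CD68, VWF and KRT8 were detected.

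Of the TRIM genes on the array, 10 were taken as interferon-type, and promoter sequence was examined for these first, because the interferon-stimulated response element (ISRE) is the textbook binding site of interferon-activated factors. RefSeq promoter windows (GRCh38.p14, 250 bases before to 50 bases after a transcript start) were matched for 53 TRIM genes, in 73 windows. The ISRE core searched was GAAANNGAAA on either strand, where N is any base, and overlapping matches were allowed. It stood in 1255 of all 35116 windows (3.57%) and in 9 of the 73 TRIM windows (12.3%). Among the interferon-type genes detected on the arrays, TRIM5, TRIM21 and TRIM26 held a match, and TRIM25, TRIM38 and TRIM56 held none in the window; TRIM22 was not matched. TRIM14, TRIM34 and TRIM69, the interferon-type genes that were not detected, each held a match. Among the other detected TRIM genes, 2 of 19 held a match, TRIM2 and TRIM44. The 30 bases around the match are shown for the 5 detected genes, 5′ to 3′ on the strand of the gene, so that the genes higher with IL-1 can be set beside those that were not. Capitals mark the core on either strand, and the run of 16 capitals in TRIM21 and in TRIM26 holds 2 overlapping matches.
TRIM5, chr11:5685082-5685111, minus strand: atagtttatcTTTCACTTTCctgccctgag
TRIM21, chr11:4393663-4393692, minus strand: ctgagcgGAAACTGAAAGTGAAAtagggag
TRIM26, chr6:30213578-30213607, minus strand: cgcctgaTTTCAGTTTCCATTTCgctgccc
TRIM2, chr4:153151936-153151965, plus strand: aataaatagaGAAAAGGAAAtaagccgaag
TRIM44, chr11:35662730-35662759, plus strand: tcctgacgggGAAAGGGAAAgtggaaccgg
The first capital lay 27 bases before the start in TRIM5, 194 before it in TRIM26, 217 before it in TRIM2 and 35 before it in TRIM44, all upstream of that transcript. In TRIM21 it lay 17 bases after the start, within the transcribed part. A narrow NF-κB form, GGGANNTTCC on either strand, stood in 564 of the 35116 windows (1.61%) and in no window of a detected TRIM gene. These matches describe letters in a window and not binding.

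With IL-1 alone, every interferon-type TRIM gene detected at p under 0.01 was higher and no other TRIM gene detected at that level was. Of the 35 detected genes 7 were higher (20%), where 8.54% of all analysed genes were called higher, and these were TRIM5, TRIM21, TRIM22, TRIM25, TRIM26, TRIM38 and TRIM56. The 7 interferon-type genes had a median log2 difference of 1.83, from 1.30 to 3.69, and all lay above the 95th percentile of all genes, which was 0.99. The 28 other TRIM genes had a median of -0.16, from -1.05 to 0.51, beside a median of -0.10 over all analysed genes. The ranges of the groups did not overlap at this filter with this list. A wider interferon-type list held 9 detected genes, of which 7 were higher and 2 were within the threshold. These 2 were TRIM6 (-0.28) and TRIM35 (0.23). At a detection p under 0.05 TRIM31 (1.35), TRIM65 (0.80) and TRIM51 (0.73), which are not on the interferon-type list, were called higher as well, and TRIM31 then lay above TRIM26 and TRIM38. At p under 0.01, 1 of the 28 was called lower (TRIM62), where 7.93% of all analysed genes were. The interferon-type list was drawn from general knowledge with earlier results of these arrays known, so its counts are a description. In bulk RNA, more cells with a transcript and more transcript per cell cannot be told apart.

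**Figure D1:**
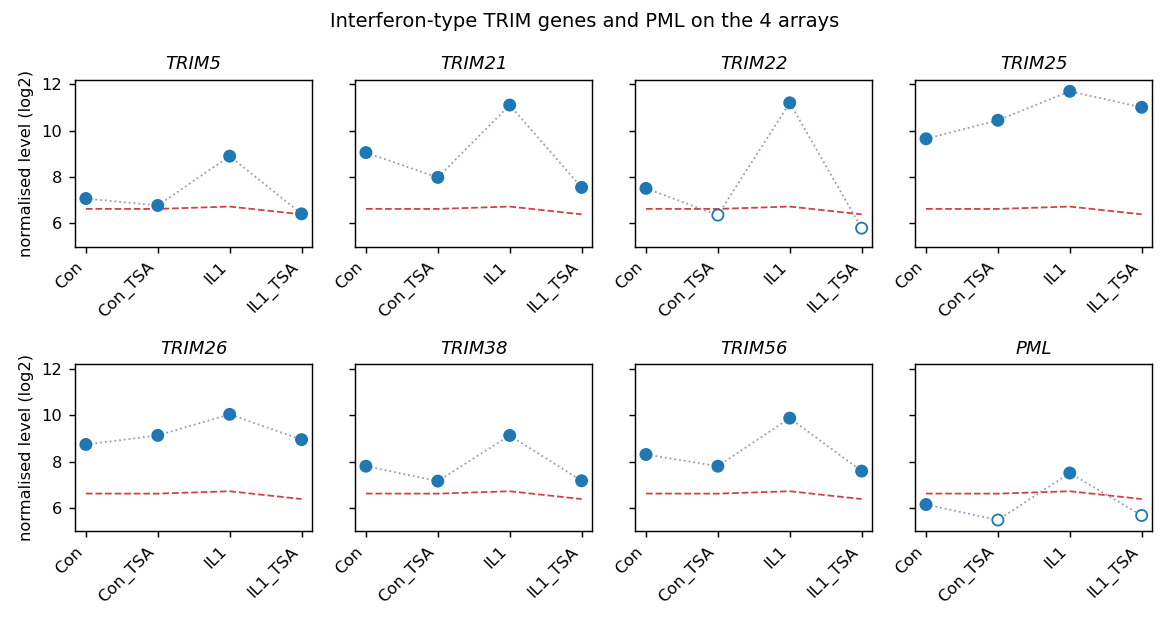
Normalised log2 level (y axis) of the 7 detected interferon-type TRIM genes and PML on the 4 arrays (x axis); filled points were detected for at least 1 probe, open points were not, and the dashed line is the lowest detected level of each array. Each gene was highest in IL1, and TRIM22 was undetected on both TSA arrays.

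TRIM22, an interferon-induced protein that restricts retroviral transcription, had the largest difference of the family. Its probe stood at 7.51 in Con, 11.20 in IL1, 5.80 in IL1_TSA and 6.36 in Con_TSA, and both TSA values fell short of detection, with detection p of 0.0237 and 0.0132. The scanner intensity behind these levels was 251 in Con, 2388 in IL1, 155 in IL1_TSA and 131 in Con_TSA. It was thus 12.9-fold higher in IL1 than in Con. With TSA it was, on this scale, lower by at least 28.1-fold in stimulated cells and by at least 1.85-fold in resting cells. On the authors' normalised scale these log2 differences were -2.35 and -0.20, and the latter was within the threshold.

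TRIM21, a cytosolic Fc receptor that directs antibody-coated particles to the proteasome, stood at 9.06 in Con, 11.11 in IL1, 7.55 in IL1_TSA and 7.98 in Con_TSA. It was 4.14-fold higher with IL-1 alone, and TSA was associated with an 11.7-fold lower level in stimulated cells and a 2.10-fold lower level in resting cells. Both TSA arrays therefore lay below the unstimulated control.

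TRIM25, the ligase that attaches ubiquitin to the RNA sensor RIG-I, stood at 9.65 in Con, 11.70 in IL1, 11.01 in IL1_TSA and 10.45 in Con_TSA. It was also 4.14-fold higher with IL-1 alone, but it was the interferon-type gene least lowered by TSA in stimulated cells, at 1.61-fold lower. In resting cells TSA went the other way, with TRIM25 1.74-fold higher, and it was the sole interferon-type gene called higher there. On the array with both agents it was 2.56-fold above Con.

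TRIM5, which restricts retroviral capsids, was the interferon-type gene with more than 1 kept probe. Its brightest probe stood at 9.42 in Con, 11.36 in IL1, 8.57 in IL1_TSA and 8.39 in Con_TSA, and the second at 7.43, 9.55, 6.77 and 7.29 in the same order. The other 2 probes were detected in IL1 alone. The 2 probes detected on all 4 arrays were higher with IL-1 alone, by 1.94 and 2.12 on the log2 scale. In IL1_TSA against IL1 they stood at -2.79 and -2.77. The other 2 went the same ways, at 1.77 and 1.48 and at -2.59 and -1.80. These 2 passed the filter through IL1 alone, so a peak there was built into their selection. The gene mean over all 4 probes, which includes values below detection, was 3.55-fold higher and 5.62-fold lower in these comparisons. For TSA in resting cells the probes differed, since the brightest was lower by a log2 difference of -1.03 and the other 3 lay between -0.22 and 0.19.

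**Figure D2:**
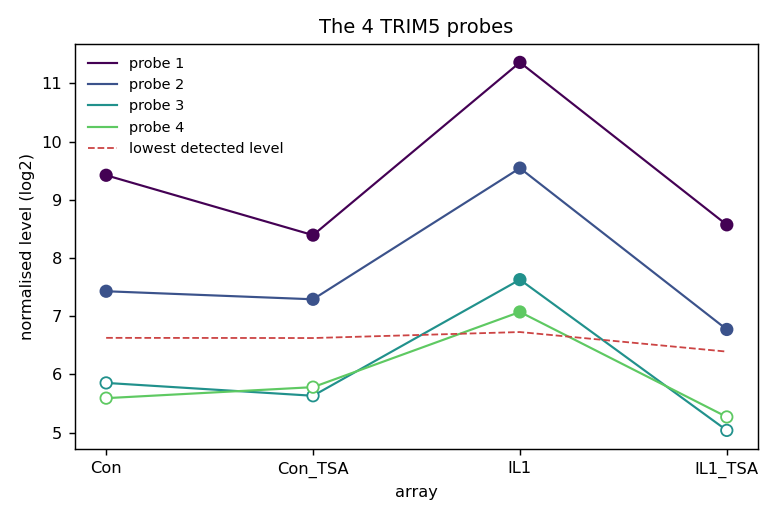
Normalised log2 level (y axis) of the 4 kept TRIM5 probes on the 4 arrays (x axis), with filled points detected, open points not detected and the dashed line at the lowest detected level. All 4 probes peak in IL1, and probes 3 and 4 were detected, and so selected, there alone.

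TRIM56, known to promote STING and TLR3 signalling, stood at 8.31 in Con, 9.88 in IL1, 7.60 in IL1_TSA and 7.81 in Con_TSA. It was 2.97-fold higher with IL-1 alone and 4.87-fold lower with TSA in stimulated cells. TRIM38, which promotes degradation of the TAK1-binding proteins, stood at 7.81 in Con, 9.14 in IL1, 7.18 in IL1_TSA and 7.17 in Con_TSA. It was 2.51-fold higher with IL-1 alone and 3.88-fold lower with TSA in stimulated cells, and it was 1.56-fold lower with TSA in resting cells. On the authors' own normalised scale the IL-1 difference of TRIM38 was 0.57, just short of the threshold, whereas the other 6 calls held.

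TRIM26, which lies in the major histocompatibility complex and acts on IRF3, stood at 8.75 in Con, 10.05 in IL1, 8.96 in IL1_TSA and 9.14 in Con_TSA. It was 2.46-fold higher with IL-1 alone and 2.13-fold lower with TSA in stimulated cells. The 3 arrays other than IL1 lay within 0.39 of each other. Of its neighbours on chromosome 6, TRIM15 was not detected and TRIM39 was not higher with IL-1, at a log2 difference of -0.21. On chromosome 11 the order in RefSeq is TRIM5, TRIM6, the readthrough TRIM6-TRIM34, TRIM34 and TRIM22, and the detected gene TRIM6 between TRIM5 and TRIM22 stood at -0.28 with IL-1 alone. The readthrough shares sequence with TRIM6 and TRIM34, and probe specificity was not tested.

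The interferon-type genes that were not detected came nearest to detection in IL1. The lowest detection p was 0.0237 for TRIM69, 0.0329 for TRIM14 and 0.058 for TRIM34, each on the IL1 array. Of all undetected TRIM genes, TRIM16, TRIM31 and TRIM65 came nearest, each with a lowest detection p of 0.0105, also on the IL1 array. These values only bound the transcripts from above and do not show absence.

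With TSA in stimulated cells, TRIM genes were called in both directions. Of the 35 genes 14 were lower in IL1_TSA than in IL1 (40%) and 9 were higher (25.7%), where 18.2% of all analysed genes were lower and 21.2% were higher. All 7 interferon-type genes were lower, with a median log2 difference of -2.29, from -5.41 to -0.69. The 28 others split into 7 lower, 9 higher and 12 within the threshold, with a median of -0.05, from -2.14 to 1.52, beside a median of 0.02 over all genes. Here the ranges overlapped, since TRIM8, TRIM39, TRIM44, TRIM47 and TRIM54 lay within the span of the interferon-type values. In the wider interferon-type list 8 of 9 detected genes were lower and 1 was higher, TRIM35 at 0.82. Of the 9 higher genes 5 were not detected in IL1, and 1 of these had a bound under 1.5-fold. The authors' normalised values gave 9 lower and 2 higher, and scaling the arrays to a common median gave 10 lower and 11 higher. This comparison shares the IL1 array with that of IL1 and Con, so a high value in IL1 enters both.

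**Figure D3:**
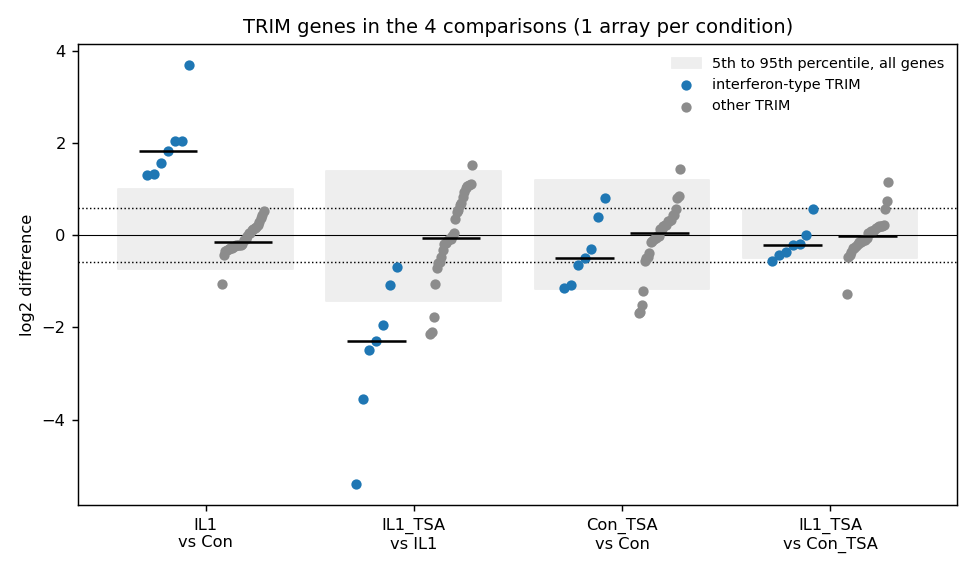
Log2 difference (y axis) of the 7 interferon-type (blue) and 28 other (grey) detected TRIM genes in the 4 comparisons (x axis), each from 1 array per condition; black bars are medians, grey bands span the 5th to 95th percentile of all 10128 genes and dotted lines mark 1.5-fold. The interferon-type genes lie above all other TRIM genes in IL1 against Con and their median is -2.29 against -0.05 in IL1_TSA against IL1.

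TSA without IL-1 gave 7 lower genes of 35 (20%) and 4 higher (11.4%), where 16.4% of all analysed genes were lower and 16.3% were higher. Scaling to a common median gave 12 lower and 3 higher, and the authors' values gave 1 of each. Among the interferon-type genes TRIM21, TRIM22 and TRIM38 were lower, TRIM25 was higher and 3 were within the threshold, with a median of -0.50. On the authors' values TRIM21 (-0.48), TRIM22 (-0.20) and TRIM38 (-0.17) were within the threshold. There the higher gene was TRIM25 (0.61) and the lower gene was TRIM8 (-1.30), which is not interferon-type. The 28 others had a median of 0.05 with 4 lower and 3 higher.

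With TSA present, no interferon-type gene was called with IL-1. In IL1_TSA against Con_TSA their median was -0.21, and they ranged from -0.56 to 0.56, with TRIM25 the highest and TRIM22 undetected on both arrays. The IL-1 comparison without TSA uses different arrays and gave 1.30 to 3.69 for the same genes. Among all 35 genes 2 were higher and 1 was lower, where 4.2% of all analysed genes were higher and 2.75% were lower. The higher genes were TRIM63, which passed the filter through IL1_TSA alone, and TRIM35, and the lower gene was TRIM62. With arrays scaled to a common median, 7 were higher and 1 was lower, TRIM25 reached 0.96 and the interferon-type median became 0.17, while the median of all genes moved from -0.03 to 0.35.

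**Figure D4:**
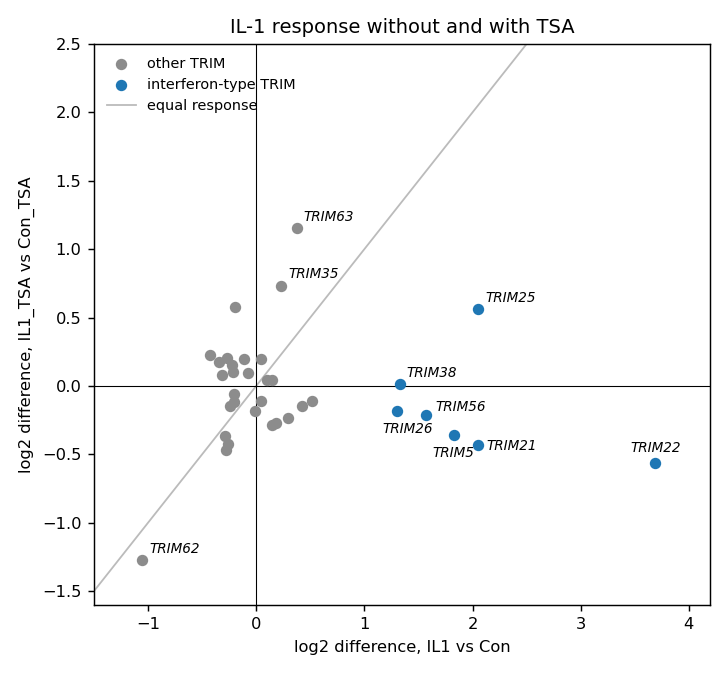
Log2 difference with IL-1 in the absence of TSA (IL1 against Con, x axis) and in its presence (IL1_TSA against Con_TSA, y axis) for the 35 detected TRIM genes; no array is used on both axes and the grey line marks equal responses. The interferon-type genes lie between 1.30 and 3.69 on the x axis and between -0.56 and 0.56 on the y axis, and TRIM62 lies near the line at -1.05 and -1.27.

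The combined treatment was also set against the vehicle control Con, a comparison for which no share of all analysed genes was computed. Other TRIM genes lay on both sides of Con there, for example TRIM8 at a log2 difference of -1.95 and TRIM9 at 1.31. TRIM21 was 2.83-fold, TRIM56 1.64-fold, TRIM5 1.58-fold and TRIM38 1.55-fold lower in IL1_TSA than in Con, and TRIM22 was detected in Con and not in IL1_TSA. TRIM26 was 1.16-fold higher, within the threshold, and TRIM25 was above Con as given. The available measure of noise is the SD of a single probe's log2 difference, estimated from pairs of probes of the same gene. It was 0.25 to 0.42 in IL1 against Con depending on level and was not computed for IL1_TSA against Con. It does not include variation between cultures.

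Among TRIM genes outside the interferon-type set, the lower levels with TSA were led by TRIM8, TRIM47, TRIM54 and TRIM39. TRIM8, which acts on TAK1 in the NF-κB pathway, stood at 11.77 in Con, 11.92 in IL1, 9.83 in IL1_TSA and 10.11 in Con_TSA. It was 4.26-fold lower with TSA in stimulated cells and 3.17-fold lower in resting cells, and its difference with IL-1 alone was 0.14. TSA was thus accompanied by lower TRIM8 whether or not IL-1 was present. The same held on the authors' scale, where the differences were -1.77 and -1.30.

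TRIM47 stood at 6.67 in Con, 7.18 in IL1, 5.04 in IL1_TSA and 5.15 in Con_TSA, and the TSA values were not detected. It was at least 1.73-fold lower with TSA in stimulated cells, but the bound in resting cells was 1.03-fold, so that call rests on values below detection. TRIM54, a muscle RING finger protein of the sarcomere, stood at 7.51 in Con, 7.22 in IL1, 5.46 in IL1_TSA and 5.82 in Con_TSA, again undetected with TSA, with bounds of 1.78-fold for stimulated and 1.85-fold for resting cells. With a detection p under 0.05 sufficing, TRIM54 stood at log2 differences of -1.17 and -0.87. TRIM39, known to stabilise the pro-apoptotic protein MOAP1, stood at 8.05 in Con, 7.84 in IL1, 6.78 in IL1_TSA and 6.84 in Con_TSA as the mean of 2 probes. It was 2.09-fold lower in stimulated and 2.32-fold lower in resting cells, but 1 of its probes was detected in Con alone. The probe detected on every array stood at log2 differences of -0.77 and -1.29. On the authors' scale the gene stood at -0.24 and -0.34, within the threshold. For all of these genes Con and IL1 were the high arrays.

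Smaller downward differences were called in stimulated cells alone for TRIM44, TRIM41 and TRIM6. TRIM44, a member with a B-box but no RING finger, was 1.64-fold lower, with levels of 11.11 in Con, 11.54 in IL1, 10.82 in IL1_TSA and 10.97 in Con_TSA. TRIM41 and TRIM6 had log2 differences of -0.60 and -0.59, at the edge of the threshold. Whether the TSA effect differed between stimulated and resting cells for these genes was not tested.

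The largest upward difference with TSA was that of TRIM9. This gene, which encodes a brain-enriched ligase with a COS box, stood at 7.34 in Con, 7.14 in IL1, 8.65 in IL1_TSA and 8.77 in Con_TSA. It was 2.86-fold higher with TSA in stimulated cells and 2.68-fold higher in resting cells, in each case ahead of the other detected TRIM genes. On the authors' scale TRIM9 stood at log2 differences of 0.45 and 0.54, within the threshold. There it lay behind TRIM4 (0.87) and TRIM2 (0.83) in stimulated cells and behind TRIM25 (0.61) in resting cells. Where a detection p under 0.05 sufficed, further TRIM9 probes entered the mean and the log2 differences were 0.62 and 0.73, no longer the largest. TRIM2 and TRIM3 carry NHL repeats and are studied in neurons, where TRIM2 ubiquitinates neurofilament light chain.

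TRIM3 stood at 6.60 in Con, 6.48 in IL1, 7.60 in IL1_TSA and 7.40 in Con_TSA and was detected on the TSA arrays alone. It was at least 1.83-fold higher in stimulated and at least 1.71-fold higher in resting cells. Its kept probe passed the filter through the TSA arrays alone, so a higher level there was built into its selection. On the authors' scale the log2 differences were 0.18 and 0.12, within the threshold. TRIM2 stood at 10.15 in Con, 9.73 in IL1, 10.82 in IL1_TSA and 10.59 in Con_TSA, 2.13-fold higher in stimulated cells and 1.35-fold higher, within the threshold, in resting cells. The third detected NHL member, TRIM32, was within the threshold in all 4 comparisons.

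TRIM52, with a RING finger and no C-terminal domain, stood at 6.58 in Con, 6.50 in IL1, 7.54 in IL1_TSA and 7.44 in Con_TSA. It was at least 1.75-fold higher in stimulated and at least 1.76-fold higher in resting cells. TRIM52 was also detected on the TSA arrays alone, so a higher level there was built into its selection. On the authors' scale its log2 differences were 0.16 and 0.13, within the threshold. TRIM4, which also acts on RIG-I, stood at 11.28 in Con, 10.93 in IL1, 11.88 in IL1_TSA and 11.71 in Con_TSA. It was 1.93-fold higher in stimulated cells and 1.35-fold higher in resting cells. TRIM36 and TRIM61 were called higher in stimulated cells at 1.61-fold and 1.58-fold, with bounds of 1.37-fold and 1.53-fold. Both were undetected in IL1.

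TRIM63 (MuRF1), the ubiquitin ligase of muscle atrophy, was detected in IL1_TSA alone. It stood at 5.89 in Con, 6.26 in IL1, 7.34 in IL1_TSA and 6.19 in Con_TSA, and was at least 1.53-fold higher than in IL1 and at least 1.64-fold higher than in Con_TSA. TRIM35 was detected on all arrays at 6.67 in Con, 6.89 in IL1, 7.72 in IL1_TSA and 6.98 in Con_TSA. It was 1.77-fold higher than in IL1 and 1.66-fold higher than in Con_TSA. Both genes were highest on the array with the combined treatment. TRIM63 passed the filter through that array alone, so its peak there was built into its selection. IL1_TSA was also the array with the most detected probes and the lowest detected level, and the part of this in the 2 genes was not tested.

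TRIM62 was the one TRIM gene called lower with IL-1. It stood at 6.77 in Con, 5.71 in IL1, 5.62 in IL1_TSA and 6.89 in Con_TSA, and was detected only on the arrays without IL-1. The measured difference was -1.05 without and -1.27 with TSA, but the bounds were 1.03-fold and 1.41-fold because the probe was dim on every array. Its highest scanner intensity was 179.

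The chromatin members did not pass the threshold in any comparison. TRIM28 (KAP1), the corepressor that zinc finger proteins recruit to silence retroelements, stood at 10.15 in Con, 9.89 in IL1, 9.95 in IL1_TSA and 10.38 in Con_TSA. TRIM24 stood at 9.18, 8.91, 9.25 and 9.05 and TRIM33 at 9.84, 9.94, 9.82 and 9.77 in the same order, each as the mean of 2 probes. TRIM24 is a nuclear receptor cofactor and TRIM33 acts on SMAD4. The largest difference among the 3 was -0.42, for TRIM28 in IL1_TSA against Con_TSA. TRIM66, the fourth PHD-bromodomain gene on the array, was not detected.

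**Figure D5:**
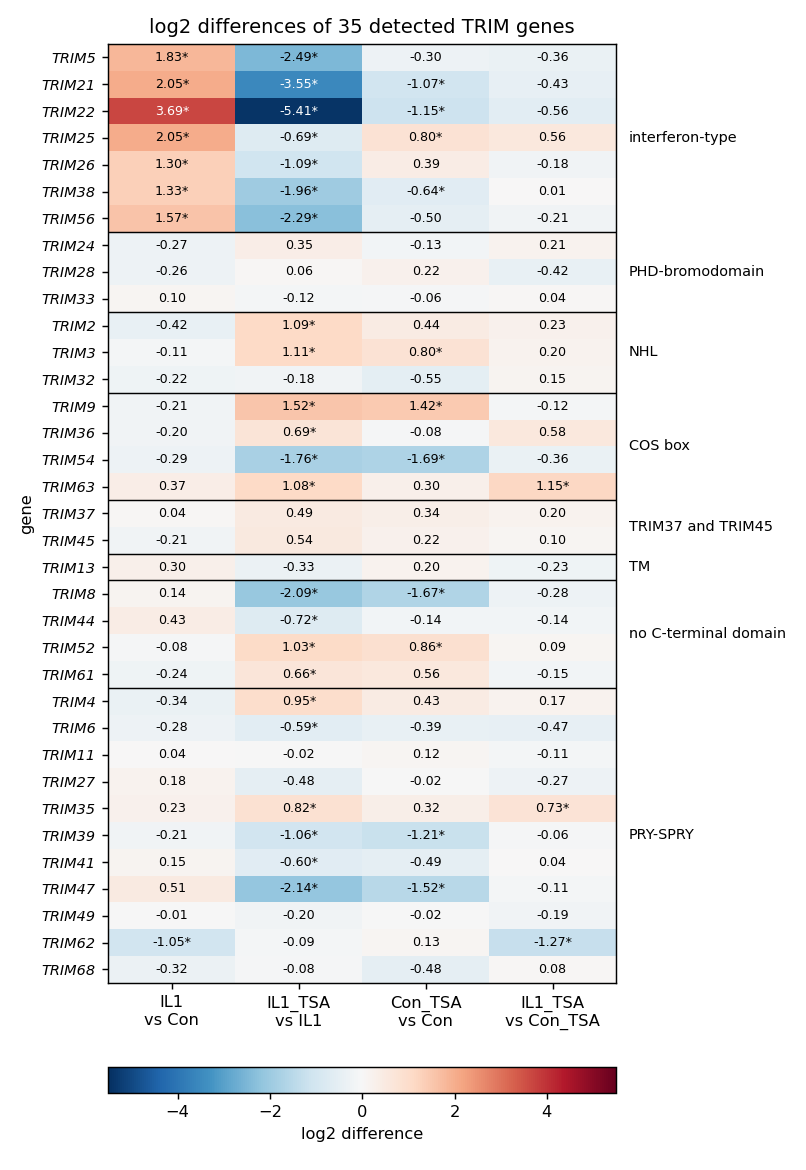
Log2 differences of the 35 detected TRIM genes (rows, grouped by interferon-type and then by C-terminal domain class, TM for transmembrane) in the 4 comparisons (columns); red is higher, blue is lower and an asterisk marks a call at 1.5-fold. The PHD-bromodomain rows hold no asterisk, and TRIM8, TRIM39, TRIM47 and TRIM54 are lower in both TSA columns.

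By C-terminal class, the PRY-SPRY domain was the most common and held 17 detected genes, 6 of them interferon-type. With TSA in stimulated cells 10 of the 17 were lower and 2 were higher, beside 18.2% and 21.2% of all analysed genes. The 10 include the 6 interferon-type genes, and of the 11 others 4 were lower and 2 were higher. Of the 4 detected COS-box genes 1 was lower and 3 were higher, and the difference between classes was not tested. TRIM37, TRIM45 and the transmembrane member TRIM13 were within the threshold throughout. Of 6 TRIM genes with at least 2 kept probes, the probes ran in 1 direction in 5 genes for IL1 against Con, 6 for IL1_TSA against IL1, 5 for Con_TSA against Con and 3 for IL1_TSA against Con_TSA. These counts include probes of TRIM5 and TRIM39 that passed the filter through 1 array only.

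Family members that carry other symbols were also read. PML (TRIM19), the interferon-induced scaffold of nuclear bodies, stood at 6.15 in Con, 7.51 in IL1, 5.68 in IL1_TSA and 5.49 in Con_TSA over 4 probes. It was at least 1.85-fold higher with IL-1 alone and at least 2.18-fold lower with TSA in stimulated cells. All 4 probes were detected in IL1, 1 in Con and 0 on the TSA arrays, so most passed the filter through IL1 alone. MID1, a microtubule-associated member, was within the threshold in all 4 comparisons, and MEFV and MID2 were not detected.

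Enzymes and partners of the family were counted next. The 7 E2 conjugating enzymes and E2 variants named on the array were all detected, whereas UBE2D1, UBE2D2 and UBE2D3 were not named. With IL-1 alone 2 of the 7 were higher, where 8.54% of all analysed genes were. In stimulated cells 4 were lower with TSA, where 18.2% of all analysed genes were. UBE2L6, which serves ISG15 conjugation, stood at 10.31 in Con, 12.05 in IL1, 10.23 in IL1_TSA and 10.42 in Con_TSA, 3.33-fold higher and 3.54-fold lower. UBE2E1 was 1.76-fold higher and 2.65-fold lower. Of the members that build K63-linked chains, the enzyme UBE2N and the variant UBE2V2 were within the threshold throughout. The variant UBE2V1 was 1.58-fold lower with TSA in stimulated and 1.56-fold lower in resting cells.

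Of 11 signalling partners on the array 10 were detected, and 2 were higher with IL-1 alone, where 8.54% of all analysed genes were. RIGI, the RNA sensor that TRIM25 ubiquitinates, stood at 6.50 in Con, 10.72 in IL1, 7.14 in IL1_TSA and 6.09 in Con_TSA. It was at least 17.1-fold higher with IL-1 alone and 12.0-fold lower with TSA in stimulated cells. IFIH1, the sensor MDA5, was 21.5-fold higher and 26.5-fold lower. STING1, the adaptor on which TRIM56 acts, was 2.89-fold lower with TSA in stimulated and 2.39-fold lower in resting cells, and was within the threshold with IL-1 alone. With TSA in stimulated cells 5 partners were lower and 1 was higher, beside 18.2% and 21.2% of all analysed genes. The higher one was TAB3, at a log2 difference of 1.09, but it passed the filter through IL1_TSA alone. Its level there, 6.55, lay under the lowest detected level of IL1, 6.73, so no lower bound on the fold can be given. Of 6 detected TRIM28 partners DAXX alone was called with IL-1 alone, at 2.01-fold higher, beside 8.54% of all analysed genes. With TSA in stimulated cells 2 were lower, DAXX at 2.94-fold and CBX5 at 1.56-fold, beside 18.2% of all analysed genes. In resting cells CBX3 was 1.54-fold lower with TSA, where 16.4% of all analysed genes were lower.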

How the data were processed

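Total RNA of 4 SW1353 samples was profiled on Illumina whole-genome arrays, 1 array per condition. The authors deposited scanner intensity values, not normalised between arrays, for 48784 probes, each with a deposited detection p-value. The authors also deposited log2 values from lumi (version not given in the sources used here), variance-stabilised and spline-normalised; these compress differences at low signal and served as an alternative. IL-1 treatment lasted 6 hours per the labels and longer per the figure legends, and the labels were followed. No deposited value column was left unused.

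From the intensities, background correction and quantile normalisation were run with neqc of limma 3.58.1 (R 4.3.3; offset 16), and summaries with Python 3.11.15. Probes detected (p under 0.01) on at least 1 array, 15088 in number, were kept and averaged per gene. The platform annotation listed 27578 of the probes, 27565 with 1 gene and 13 with several, and 21206 were not listed. It may belong to an earlier array design than the one the methods name, so further TRIM probes may be unnamed here. All 120 TRIM probes matched RefSeq (GRCh38.p14) and 0 symbols changed.

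The members and lists were chosen with earlier results of these data known. Genes named with values were all detected interferon-type and PHD-bromodomain members and the other TRIM genes called in at least 1 comparison with kept probes in 1 direction. Classes and partner lists came from general knowledge. The calling step was tested on simulated data. The number of arrays limits the precision, and no test between conditions was made. Alternatives were the authors' values, no background correction, median scaling, an offset of 50, other detection filters, the brightest probe, a 2-fold threshold, and narrower and wider interferon-type lists.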

Additional observations from a re-analysis of the deposited data

Results flagged for a closer look

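TRIM25 was singled out because TSA went in opposite directions with and without IL-1. Its log2 difference was -0.69 in IL1_TSA against IL1 and 0.80 in Con_TSA against Con, each past 1.5-fold, so that the effects differed by -1.49. The size of this gap was not particular to TRIM25. All 7 interferon-type genes stood lower in the former comparison, such as TRIM21 (-3.55 and -1.07), TRIM26 (-1.09 and 0.39) and TRIM38 (-1.96 and -0.64). TRIM25 alone was called in opposite directions. Its single probe was detected on all 4 arrays. At such levels the SD of a single probe's log2 difference, from pairs of probes of the same gene, was 0.28 and 0.24 in these comparisons. Each of the calls held in 7 of 9 settings. Each effect rests on 1 array per condition, and the difference between them was not tested.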

How the results depend on the processing

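No paired analysis was possible because each condition has 1 array, and for the same reason no replicate could be left out. No result reversed at the threshold. With the authors' deposited values 19 of 45 calls of named genes held and 26 fell short. Those values gave 0 TRIM genes lower in IL1 against Con (1 in the main processing), 2 higher and 9 lower in IL1_TSA against IL1 (9 and 14), 1 higher and 1 lower in Con_TSA against Con (4 and 7), and 0 and 0 in IL1_TSA against Con_TSA (2 and 1). Without background correction 35 of 45 calls held, with 0 lower in IL1 against Con, 2 higher in Con_TSA against Con and 1 higher in IL1_TSA against Con_TSA. Median scaling moved the median of all genes to 0.22 in IL1_TSA against IL1, -0.19 in Con_TSA against Con and 0.35 in IL1_TSA against Con_TSA; it gave 12 lower in Con_TSA against Con and 7 higher in IL1_TSA against Con_TSA. A detection p under 0.05 gave 11 higher and 3 lower in IL1 against Con and 4 higher in IL1_TSA against Con_TSA; TRIM69 and, outside the interferon-type list, TRIM31, TRIM65 and TRIM51 joined the 7 higher with IL-1. Without a filter 69 genes entered and 2 were lower in IL1 against Con. Requiring detection on all 4 arrays gave 0 lower in IL1 against Con, 4 higher in IL1_TSA against IL1, 2 higher and 4 lower in Con_TSA against Con, and 1 higher and 0 lower in IL1_TSA against Con_TSA. A 2-fold threshold gave 5 higher in IL1_TSA against IL1, 1 higher in Con_TSA against Con and 1 higher in IL1_TSA against Con_TSA. The interferon-type median in Con_TSA against Con (-0.50) passed 1.5-fold with the narrow list (-0.64), the brightest probe (-0.64) and median scaling (-0.68). TRIM25 lost its call in IL1_TSA against IL1 in 2 of 9 settings (smallest -0.57) and kept that in Con_TSA against Con in 7 of 9 (smallest 0.58); TRIM38 kept its call in Con_TSA against Con in 5 of 9 (smallest -0.17).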
